A study of Homo sapiens with 4 samples.

Results

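Enzymes that build fatty acids from citrate and join them to coenzyme A were followed in ribosome footprints of drug-resistant HCT-8 cells. The set held 10 genes of the 20323 in the deposited tables: ACLY, ACACA and FASN, which make palmitate, SCD, ELOVL6 and FADS2, which desaturate and lengthen it, and 4 long-chain acyl-CoA synthetases, ACSL1, ACSL3, ACSL4 and ACSL5. They were chosen by name, and each symbol stood in 1 row of the files. HCT-8 is a human colorectal adenocarcinoma line, used here after it had become resistant to the drug 5-fluorouracil (5-FU). One group was transfected with a plasmid for overexpression of METTL14 (OE), which binds RNA beside the catalytic METTL3 in the enzyme that places N6-methyladenosine on messages, and the other with a negative control plasmid (NC). All cells, NC included, were 5-FU-resistant and received cycloheximide at 100 ug/mL to hold ribosomes on messages. There were 2 libraries per group, from experiments that the submitters call independent. The comparison of OE with NC asks how METTL14 overexpression alters the ribosome footprints on these messages.

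Fatty acid synthesis runs in the cytosol: ATP citrate lyase splits exported citrate into acetyl-CoA, acetyl-CoA carboxylase commits it as malonyl-CoA, and fatty acid synthase condenses these units into palmitate. Elongases and desaturases of the endoplasmic reticulum (ER) then extend the chain and set double bonds, and long-chain acyl-CoA synthetases activate free fatty acids for membrane lipids, storage or oxidation. Many of these genes are textbook targets of the transcription factor SREBP1, and colorectal tumours are known for active fatty acid synthesis.

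Promoter sequence is shown for 4 of the genes to give the context of that shared transcriptional control: ELOVL6, which had the lowest fold change of the set, SCD and ACSL3, which have 1 start site each in the table and a CCAAT box, and ACSL1, which lay apart from the other genes. Sequences are the 250 bases before an annotated start, from RefSeq on GRCh38.p14, a build other than that of the files, and are written 5′ to 3′ on the strand of the gene. Capitals mark CCAAT or its complement ATTGG, the box bound by NF-Y, in the SCD and ACSL3 windows, and in the ACSL1 window a match to TCACNCCAC, a form of the sterol regulatory element bound by SREBP, read on the opposite strand. The ELOVL6 window held neither motif. The ACSL1 window also held ATTGG, which was left in lower case.
ELOVL6 promoter, chr4:110198616-110198865, - strand: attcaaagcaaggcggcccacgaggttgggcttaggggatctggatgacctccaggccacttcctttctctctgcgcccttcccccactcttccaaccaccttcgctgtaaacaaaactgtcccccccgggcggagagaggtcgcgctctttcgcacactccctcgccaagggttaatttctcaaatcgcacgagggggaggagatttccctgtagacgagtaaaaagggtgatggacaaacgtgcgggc
SCD promoter, chr10:100346983-100347232, + strand: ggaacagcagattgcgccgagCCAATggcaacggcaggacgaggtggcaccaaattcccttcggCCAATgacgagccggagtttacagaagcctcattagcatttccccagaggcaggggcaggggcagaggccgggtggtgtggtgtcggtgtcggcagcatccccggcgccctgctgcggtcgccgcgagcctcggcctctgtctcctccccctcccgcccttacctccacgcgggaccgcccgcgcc
ACSL3 promoter, chr2:222860786-222861035, + strand: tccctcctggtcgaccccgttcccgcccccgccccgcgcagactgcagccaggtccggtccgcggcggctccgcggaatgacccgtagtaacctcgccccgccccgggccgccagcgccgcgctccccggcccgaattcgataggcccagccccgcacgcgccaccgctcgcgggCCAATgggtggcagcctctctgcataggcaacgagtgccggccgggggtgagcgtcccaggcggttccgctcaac
ACSL1 promoter, chr4:184805554-184805803, - strand: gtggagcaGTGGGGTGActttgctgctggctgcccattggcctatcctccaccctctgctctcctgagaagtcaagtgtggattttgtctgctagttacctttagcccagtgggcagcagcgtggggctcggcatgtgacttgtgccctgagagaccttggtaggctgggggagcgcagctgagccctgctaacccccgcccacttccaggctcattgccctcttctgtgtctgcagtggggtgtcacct
Of the 10 genes, 9 were found in the table, with 18 windows in all since several genes have more than 1 start. CCAAT on either strand occurred in 7 of those windows (5 genes: ACLY, ACACA, SCD, ACSL1 and ACSL3) and in 32.0% of all 35116 windows of the same length. In SCD the boxes began 229 and 186 bases before the start, and in ACSL3 the box began 75 bases before it. TCACNCCAC on either strand occurred in 1 member window, the ACSL1 window printed here, where it began 242 bases before the start, and in 0.883% of all windows. The E-box CACGTG occurred in 0 member windows and in 6.34% of all windows. No marked motif in the printed windows overlapped another of the motifs searched. These matches describe letters only, since footprint counts do not measure transcription.

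A footprint count reflects the amount of a message and the ribosomes on it, which cannot be told apart here, nor can fewer expressing cells and less RNA per cell. Library totals were 7742274 and 24392875 counts in OE replicates 1 and 2, against 21846389 and 18707758 in NC replicates 1 and 2. Levels are given as footprint counts relative to library size (CPM) after scaling by TMM, a normalization that sets the bulk of genes equal between libraries. METTL14 itself was at 448 and 91.2 CPM in OE, against 44.5 and 47.6 CPM in NC, so the libraries matched their labels although OE replicate 1 held far more. Its log2 fold change of 2.55 (SE 0.81) did not pass edgeR's quasi-likelihood test either, at a Benjamini-Hochberg adjusted p of 0.734. The OE pair was less alike than the NC pair, with log2 differences between replicates whose SD over 12560 genes was 1.30 in OE and 0.46 in NC. OE replicate 1 also differed from NC by level: the log2 difference from the NC mean had a median of 1.17 in the lowest decile of genes by NC level and -1.08 in the highest, while the medians of the deciles lay between -0.09 and 0.07 in OE replicate 2. Of 9 epithelial markers 8 were measured, with summed levels of 6270 and 24700 CPM in OE and 22000 and 21300 CPM in NC. The carcinoembryonic antigen gene CEACAM5 was not, at 0 CPM in both OE libraries and at most 0.0891 CPM in NC. Markers of other cell types summed to between 2.99 and 6.68 CPM in OE and 9.83 to 10.3 CPM in NC for fibroblasts, and to at most 0.41 CPM for endothelial cells and 1.33 CPM for adipocytes in any library. Leukocyte markers summed to 41.7 and 30.6 CPM in OE and 72.4 and 78.6 CPM in NC, nearly all from the lysosomal gene CD68, with CD3E at 0 in every library and the pan-leukocyte gene PTPRC at 0.0952 CPM in OE replicate 1 and 0 elsewhere. Hepatocyte markers summed to 62.9 and 66.6 CPM in OE and 90.2 and 100 CPM in NC, nearly all from SERPINA1. Their part in the results on fatty acid genes was not tested.

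For 9 of the 10 genes each OE library had a lower footprint level than either NC library, and for ACSL1 the groups overlapped. Of all 12560 genes that passed the filter on low counts, which included the 10, 20.4% lay below NC in both OE libraries and 19.9% above. The 10 genes together held 920 and 1180 CPM in OE, against 1520 and 1760 CPM in NC, which put OE replicate 1 at 56.0% and OE replicate 2 at 72.2% of the NC mean. Relative to library totals alone, without TMM, the 10 held 1250 and 1070 CPM in OE, against 1350 and 1610 CPM in NC. OE replicate 1 was then at 84.4% and OE replicate 2 at 72.6% of the NC mean, so the order of the OE libraries turned with the scaling. By edgeR's quasi-likelihood test 0 of the 10 passed a Benjamini-Hochberg adjusted p of 0.05, as did 0% of all genes in either direction, with the adjusted p of the 10 between 0.734 and 0.897. At an unadjusted p below 0.05 the test gave 691 of 12560 genes (5.5%), among them ELOVL6 as the only one of the 10. DESeq2's Wald test called 25 genes (0.199%), with 0 of the 10 among them. The median log2 fold change of the 10 was -0.65, against 0.09 over all genes. As a difference in log2 CPM from the NC mean, their median was -0.86 in OE replicate 1 and -0.52 in the second OE library. Between the NC replicates, 1 minus 2, the same median was -0.18, as each of the 10 was lower in NC replicate 1.

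**Figure D1:**
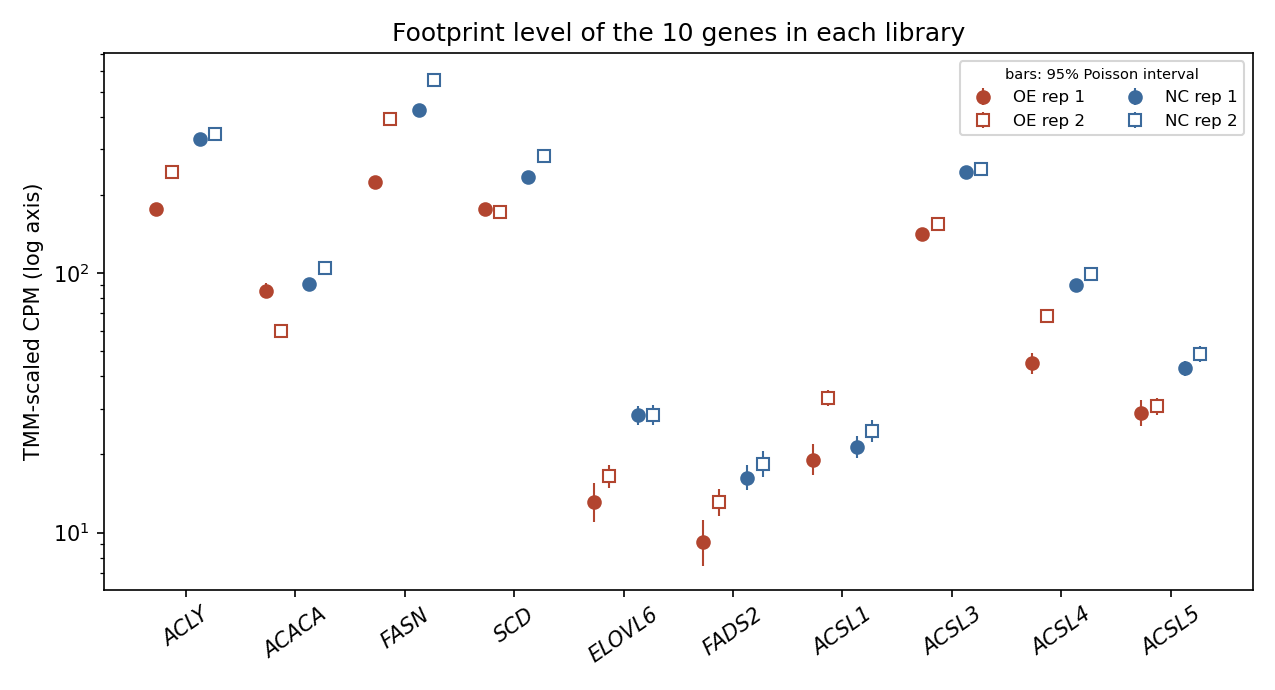
TMM-scaled footprint level in CPM (log axis) of the 10 genes in each library, with OE in red and NC in blue, filled circles for replicate 1, open squares for replicate 2 and bars for exact 95% Poisson intervals. For 9 genes both OE points lie below both NC points, while for ACSL1 OE replicate 2 (33.0 CPM) is the highest and OE replicate 1 (19.1 CPM) the lowest.

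The cytosolic enzymes that make palmitate were lower in both OE libraries, by unequal amounts. ACLY (ENSG00000131473), ATP citrate lyase, had 177 and 245 CPM in OE replicates 1 and 2, against 329 and 345 CPM in NC. The groups did not overlap, and OE replicate 1 was the lower of its pair, for a log2 fold change of -0.67 (SE 0.41; edgeR adjusted p = 0.734). FASN (ENSG00000169710), the synthase itself, had 224 and 391 CPM in OE and 424 and 557 CPM in NC. OE replicate 2 came within 1 replicate spread of NC replicate 1, since the NC pair had a mean of 490 ± 94.1 CPM against 308 ± 118 CPM in OE (SD, n = 2 each). The log2 fold change of FASN was -0.67 (SE 0.50; edgeR adjusted p = 0.741), with a 95% interval of -1.96 to 0.61. ACACA (ENSG00000278540), acetyl-CoA carboxylase alpha and the rate-limiting step, had 85.7 and 59.9 CPM in OE and 91.2 and 105 CPM in NC. Here OE replicate 2 was the low library, at 61.1% of the NC mean, and OE replicate 1 stood at 87.4%, with a Poisson interval of 80.2 to 91.5 CPM that overlapped the 87.0 to 95.6 CPM of NC replicate 1. Its log2 fold change was -0.43 (SE 0.35; edgeR adjusted p = 0.752).

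The order of the OE replicates thus differed within this short pathway under TMM. After quantile normalization OE replicate 1 was the higher OE library for all 3 genes. ACLY was then at 253 and 224 normalized CPM in OE replicates 1 and 2, FASN at 342 and 337 and ACACA at 99.6 and 58.8. Shares of the footprints, taken within each library, differed between the OE replicates as well. ACACA took 17.6% and 8.60% of the footprints on ACLY, ACACA and FASN in OE replicates 1 and 2, against 10.8% and 10.4% in NC. The OE libraries lay on opposite sides of NC for this share, and the exact binomial 95% intervals of 16.6% to 18.7% and 8.16% to 9.05% in OE did not meet those of NC, which ran from 9.97% to 11.3%. After quantile normalization ACACA held 14.3% and 9.47% in OE against 11.9% and 11.2% in NC, still on opposite sides. FASN took 46.0% and 56.2% in OE and 50.2% and 55.3% in NC, and ACLY 36.4% and 35.2% in OE and 38.9% and 34.2% in NC. All 3 enzymes together held 487 and 696 CPM in OE, against 844 and 1010 CPM in NC.

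Among the ER enzymes that act on palmitate, ELOVL6 stood lowest relative to NC. ELOVL6 (ENSG00000170522), the elongase that takes palmitate to stearate, had 13.1 and 16.5 CPM in OE replicates 1 and 2, against 28.3 and 28.5 CPM in NC. Both OE libraries were at 46.3% and 58.0% of the NC mean, and their Poisson intervals of 11 to 15.5 CPM and 14.8 to 18.2 CPM stayed clear of the 26.0 CPM that bounded both NC libraries from below. The means were 14.8 ± 2.35 CPM in OE and 28.4 ± 0.153 CPM in NC (SD, n = 2 each), and the log2 fold change was -0.94 (SE 0.30), a ratio of 0.522. Its unadjusted p of 0.0246 became 0.734 after Benjamini-Hochberg adjustment over all genes by edgeR, so the difference did not pass. The 95% interval of -1.70 to -0.18 was the only one of the 10 that did not include 0.

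SCD (ENSG00000099194), the stearoyl-CoA desaturase that makes oleate, had 177 and 172 CPM in OE and 234 and 283 CPM in NC. Under TMM the OE libraries differed by less than the NC libraries, with 174 ± 3.11 CPM in OE and 258 ± 35.1 CPM in NC (SD, n = 2 each). This was not so after quantile normalization, at 252 and 162 normalized CPM in OE and 205 and 252 in NC. The log2 fold change was -0.57 (SE 0.37; edgeR adjusted p = 0.734). FADS2 (ENSG00000134824), the delta-6 desaturase that opens the path to long polyunsaturated fatty acids, had 9.20 and 13.1 CPM in OE and 16.3 and 18.4 CPM in NC. It was the least covered of the set, with 96.69 and 289.64 estimated counts in OE and 316.91 and 314.33 in NC, and a log2 fold change of -0.63 (SE 0.35; edgeR adjusted p = 0.734). The Poisson interval of 11.6 to 14.7 CPM in OE replicate 2 met the 14.6 to 18.2 CPM of NC replicate 1 only at its end. These intervals cover counting error alone, and their overlap does not show that the 2 libraries were equal.

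The FADS2 counts were fractional in all 4 libraries, as estimated counts are where reads match more than 1 gene. FADS1, the delta-5 desaturase, was fractional in all 4 as well, and FADS1 plus FADS2 summed to a whole number, within 0.005, in 3 libraries. With FADS3 added the sum was whole in all 4, at 1102 and 2428 counts in OE and 1908 and 1524 in NC. The value of FADS2 therefore depends on how the authors' counting split reads among the family. FADS3 was higher in both OE libraries, at 72.1 and 49.3 CPM in OE against 43.4 and 33.6 CPM in NC, with a log2 fold change of 0.66 (SE 0.35; edgeR adjusted p = 0.734) that did not pass. FADS3 was singled out for this sharing.

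Of the synthetases that activate fatty acids, ACSL3, ACSL4 and ACSL5 were lower in both OE libraries and ACSL1 was not. ACSL3 (ENSG00000123983), which activates fatty acids at the ER and on lipid droplets, had 141 and 154 CPM in OE and 245 and 253 CPM in NC. Under TMM replicates of each group lay close together, at 148 ± 9.54 CPM in OE and 249 ± 5.75 CPM in NC (SD, n = 2 each). After quantile normalization ACSL3 was at 190 and 145 normalized CPM in OE and 214 and 226 in NC. Its log2 fold change under TMM was -0.75 (SE 0.36; edgeR adjusted p = 0.734). ACSL4 (ENSG00000068366), which prefers arachidonate and is known for its part in ferroptosis, had 44.9 and 68.2 CPM in OE and 89.9 and 99.0 CPM in NC. OE replicate 1 was at 47.5% and OE replicate 2 at 72.2% of the NC mean, for a log2 fold change of -0.74 (SE 0.35; edgeR adjusted p = 0.734). ACSL5 (ENSG00000197142), abundant in intestinal epithelium, had 28.8 and 30.7 CPM in OE and 43.0 and 48.9 CPM in NC. Its OE libraries were nearly equal under TMM, at 62.8% and 66.7% of the NC mean, and the log2 fold change was -0.63 (SE 0.29; edgeR adjusted p = 0.734).

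ACSL1 (ENSG00000151726), an isoform of the mitochondrial surface and ER known from fat and muscle, had 19.1 and 33.0 CPM in OE and 21.4 and 24.7 CPM in NC. The OE libraries lay on either side of NC, OE replicate 1 at 83.1% and OE replicate 2 at 143% of the NC mean, and the log2 fold change was 0.18 (SE 0.37; edgeR adjusted p = 0.897). The 95% interval ran from -0.77 to 1.13. Without OE replicate 2 the log2 fold change turned to -0.31, and without OE replicate 1 it was 0.52.

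As a share of the deposited counts on the 4 ACSL genes ACSL1 was higher in both OE libraries, but not after quantile normalization. It took 8.18% (exact binomial 95% interval 7.13% to 9.34%) and 11.5% (10.8% to 12.3%) in OE replicates 1 and 2, against 5.36% (4.87% to 5.88%) and 5.80% (5.28% to 6.37%) in NC. The groups did not overlap, at 9.86 ± 2.37% in OE and 5.58 ± 0.314% in NC (SD, n = 2 each), but an exact two-sided permutation test gave p = 0.333, the smallest that 2 against 2 libraries allow. After quantile normalization, tried on this share after seeing the data, ACSL1 held 5.97% and 12.1% in OE, against 6.15% and 6.51% in NC, so OE replicate 1 lay below both NC libraries and the groups overlapped. A share within a library needs no factor between libraries, but it is open to the shift by level of OE replicate 1, where the decile of ACSL1 had a median log2 difference of 0.06 and that of ACSL3 one of -1.08. The share itself was computed after the levels had been seen. ACSL3 took 60.3% and 54.0% in OE and 61.3% and 59.4% in NC, ACSL4 19.2% and 23.8% in OE and 22.5% and 23.3% in NC, and ACSL5 12.3% and 10.7% in OE and 10.8% and 11.5% in NC. The shares of all 3 overlapped between the groups on the deposited counts. After quantile normalization ACSL3 and ACSL4 still overlapped, while ACSL5 was lower in OE, at 9.67% and 11.3% against 11.8% and 12.4% in NC.

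**Figure D2:**
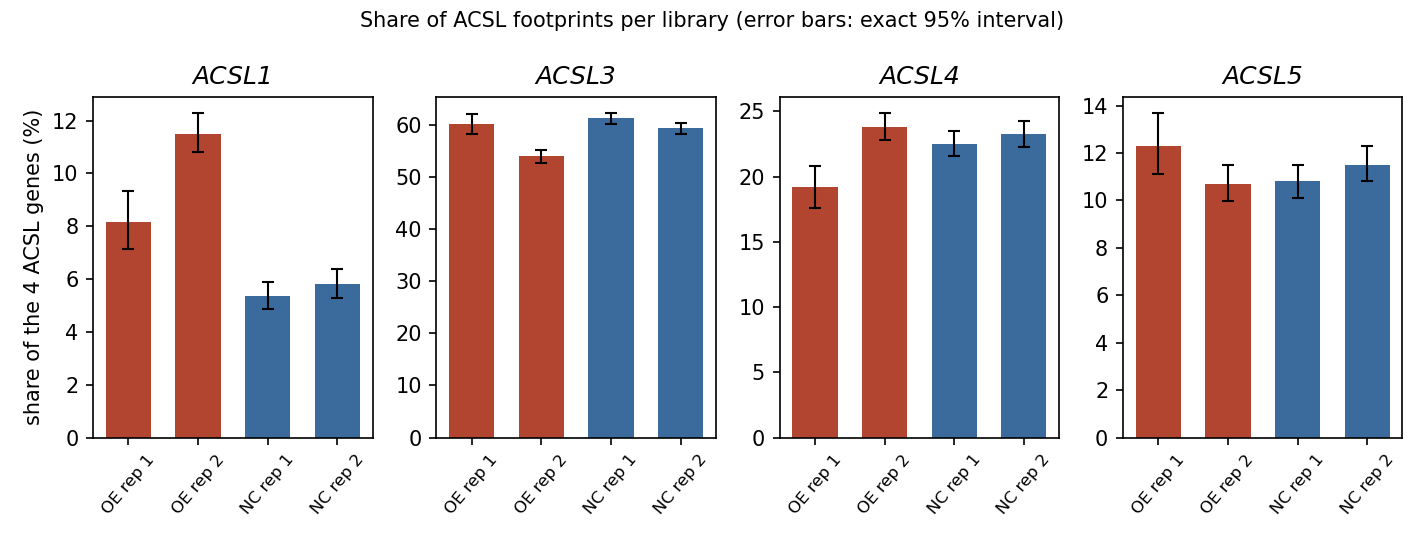
Share of the summed ACSL1, ACSL3, ACSL4 and ACSL5 footprints that fell on each gene, in percent, with OE in red left of NC in blue and error bars for exact 95% binomial intervals; each panel has its own axis from 0. ACSL1 is at 8.18% and 11.5% in OE and at 5.36% and 5.80% in NC, while the other panels overlap between the groups. After quantile normalization, which is not drawn, ACSL1 overlaps, at 5.97% and 12.1% in OE and 6.15% and 6.51% in NC. ACSL5 is then lower in both OE libraries.

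ACSL3 and ACSL4, close relatives within the family, were linked in the same way. Both had whole counts in the NC libraries and fractional counts in the OE libraries, 1480.75 and 3415.69 for ACSL3 and 471.25 and 1507.31 for ACSL4. Their sum was whole in all 4 libraries, at 1952 and 4923 counts in OE and 6493 and 5999 in NC. The 7 genes other than FADS2, ACSL3 and ACSL4 had whole counts in every library. Levels are not ranked between genes, since no transcript or coding lengths were used here.

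Each OE library was also set against the genes of like level, because OE replicate 1 ran lower at high levels. ACLY, FASN, SCD and ACSL3 belonged to the highest decile of NC level, where 45.0% of genes lay below NC in both OE libraries, and ACACA and ACSL4 to the next decile, with 34.6%. For ACSL5 this share was 21.7%, for ELOVL6 and ACSL1 17.1%, and for FADS2 12.3%. In OE replicate 1 the highest decile had a median log2 difference of -1.08, and ACLY with -0.92, ACSL3 with -0.82 and SCD with -0.54 lay above it and FASN with -1.12 near it. ACACA with -0.19 was also above its decile, at -0.65. ELOVL6 and FADS2 lay far below theirs, with -1.11 and -0.90 in OE replicate 1 against deciles at 0.06 and 0.29, and ACSL4 and ACSL5 lay 0.43 and 0.54 below. In OE replicate 2, where no decile was shifted by more than 0.09, 9 of the 10 genes lay below their decile, from -0.31 for FASN to -0.78 for ELOVL6 as differences from the NC mean, and ACSL1 lay above it with 0.52.

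**Figure D3:**
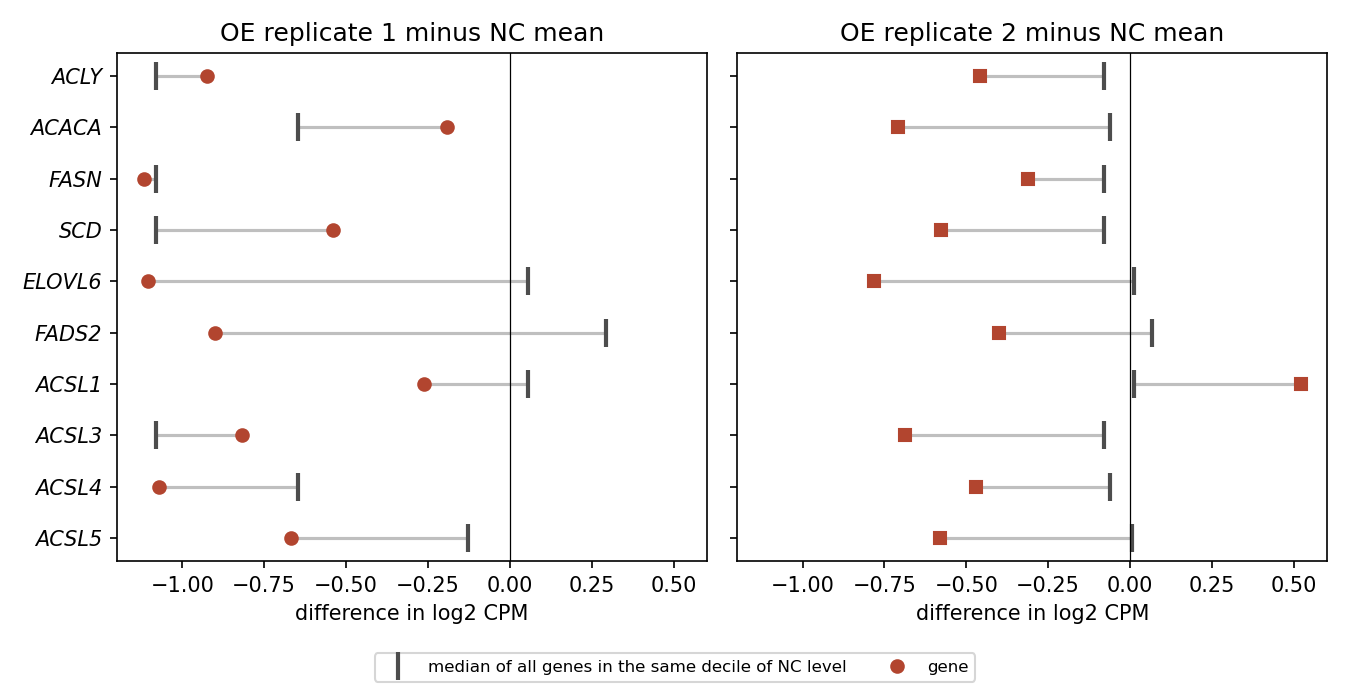
Difference in log2 CPM of each gene from the NC mean, in OE replicate 1 (left panel, circles) and OE replicate 2 (right panel, squares), with a vertical tick for the median of all genes in the same decile of NC level. In OE replicate 1 ACLY, ACACA, SCD and ACSL3 lie above their tick, and in OE replicate 2 every gene except ACSL1 lies below it.

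Quantile normalization, which gives the libraries one distribution of levels, left 7 of the 10 genes lower in both OE libraries, against 20.7% of all genes, with a median log2 fold change of -0.36. The median of the 10 then lay 0.34 below that of all genes, compared with 0.75 below under TMM. ACACA, at 99.6 and 58.8 normalized CPM in OE against 87.2 and 99.2 in NC, and SCD, at 252 and 162 in OE against 205 and 252 in NC, then overlapped like ACSL1. ELOVL6 and FADS2 moved further down, to log2 fold changes of -1.10 and -0.87 (limma adjusted p = 0.828 for both), and ACSL1 turned to -0.03. When libraries were scaled by their totals alone, 6 genes were lower in both OE libraries, against 11.7% of all genes, with ACACA, SCD, ACSL1 and ACSL5 the exceptions. That scaling moved the median of all genes to 0.40, and the median of the 10, at -0.37, lay 0.78 below it. Each OE library was also fitted alone, resting on the spread of the NC pair, so calls from these fits are not given. Without OE replicate 1 the median log2 fold change of the 10 was -0.52, against -0.011 over all genes, with ACSL1 at 0.52. Without OE replicate 2 the median of the 10 was -0.90, against 0.019 over all genes, with ACSL1 at -0.31. These values describe single OE libraries.

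Genes around the pathway lay mixed, and in each list named here 0 members passed edgeR's quasi-likelihood test after Benjamini-Hochberg adjustment in either direction, with a smallest adjusted p of 0.734. Other enzymes of synthesis, elongation and desaturation had 18 measured members and a median log2 fold change of -0.37. Of these, 8 lay below NC and 2 above NC in both OE libraries. Over all genes the shares were 20.4% below and 19.9% above. They varied with level, to 45.0% below and 1.51% above in the highest decile, so the counts of the lists were not compared with genes of like level. SCD5, a second stearoyl-CoA desaturase, had 33.3 and 62.1 CPM in OE and 97.2 and 93.0 CPM in NC. HSD17B12, the ketoacyl-CoA reductase of the elongation cycle, had 85.8 and 137 CPM in OE and 193 and 189 CPM in NC, and the elongase ELOVL7 had 17.7 and 21.0 CPM in OE and 26.6 and 30.8 CPM in NC. The log2 fold changes of these 3 genes were -0.99, -0.77 and -0.57, and ELOVL7 overlapped between the groups with library totals alone.

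Genes that supply acetyl-CoA and NADPH had a median of -0.09. In both OE libraries 3 of 10 lay below NC and 2 above, beside 20.4% and 19.9% of all genes. With library totals alone 2 lay below and 4 above, beside 11.7% and 30.2% of all genes. NADK, the kinase that makes NADP, had 91.5 and 46.7 CPM in OE and 27.6 and 24.9 CPM in NC, a log2 fold change of 1.40 (SE 0.43). SLC25A1, the citrate carrier upstream of ACLY, had 69.9 and 86.6 CPM in OE and 59.6 and 64.8 CPM in NC, and the aconitase ACO1 had 29.2 and 56.2 CPM in OE and 60.3 and 65.8 CPM in NC. The carrier was therefore higher in both OE libraries while the lyase that uses its citrate was lower, neither difference passing the test. Regulators of acetyl-CoA carboxylase had a median of 0.12, with 2 of 9 lower and 1 higher in both OE libraries. With library totals alone 0 were lower and 2 higher, and the shares of all genes are those just given. The 1 higher gene, which ranked first in this list by unadjusted p, is not reported here. STK11 (LKB1), the kinase upstream of AMPK, had 89.0 and 14.5 CPM in OE and 19.4 and 19.2 CPM in NC, so its OE libraries lay on opposite sides of NC. MID1IP1, which helps the carboxylase polymerize, had 27.2 and 31.3 CPM in OE and 41.3 and 35.9 CPM in NC, and overlapped between the groups with library totals alone.

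Among genes of SREBP and related transcriptional control, 4 of 12 lay below NC in both OE libraries and 4 above, for a median of 0.12. With library totals alone 1 of the 12 lay below NC in both OE libraries, SREBF1, and 7 above. Of all genes 20.4% lay below and 19.9% above under TMM, and 11.7% below and 30.2% above with library totals. MLXIPL (ChREBP), which drives lipogenic genes in response to sugars, had 113 and 19.9 CPM in OE and 13.3 and 14.8 CPM in NC, and the liver X receptor gene NR1H3 had 26.3 and 15.5 CPM in OE and 12 and 10.1 CPM in NC. INSIG2, which retains SREBP in the ER, had 19.0 and 13.1 CPM in OE and 27.4 and 23.7 CPM in NC. SREBF1, which encodes SREBP1 and was picked after its values were seen, had 171 and 241 CPM in OE and 347 and 324 CPM in NC, a log2 fold change of -0.70 (SE 0.41). Its escort SCAP, picked in the same way, had 40.1 CPM in both OE libraries and 57.5 and 51.1 CPM in NC. With library totals alone SCAP was at 54.5 and 36.3 CPM in OE and 51.1 and 46.6 CPM in NC, and INSIG2 at 25.9 and 11.9 CPM in OE and 24.4 and 21.7 CPM in NC, so that both overlapped.

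Other acyl-CoA synthetases and carriers had 6 of 19 genes below NC in both OE libraries and 1 above (median -0.31), glycerolipid synthesis 12 of 24 below and 3 above (median -0.20), and beta-oxidation 9 of 23 below and 1 above (median -0.32). With library totals alone these lists had 4, 8 and 8 genes below NC and 4, 5 and 4 above. Of all genes 20.4% lay below and 19.9% above under TMM, and 11.7% below and 30.2% above with library totals. The mitochondrial synthetase ACSF2 had 35.4 and 26.2 CPM in OE and 57.4 and 54.7 CPM in NC, the transport protein SLC27A3 had 26.8 and 42.9 CPM in OE and 61.9 and 60.4 CPM in NC, and the Golgi acyl-CoA-binding protein ACBD3 had 67.3 and 49.6 CPM in OE and 85.6 and 93.7 CPM in NC. All 3 were lower in both OE libraries, except that ACBD3 overlapped with library totals alone. The phosphatidate phosphatases LPIN1 and LPIN3, which make diacylglycerol, went the other way, with 25.7 and 26.6 CPM in OE against 14.7 and 15.3 CPM in NC for LPIN1 and 15.2 and 13.4 CPM in OE against 8.03 and 6.86 CPM in NC for LPIN3. CEPT1, which completes phosphatidylcholine and phosphatidylethanolamine, had 24.0 and 36.5 CPM in OE and 53.1 and 57.4 CPM in NC. In beta-oxidation the peroxisomal enzyme HSD17B4 had 77.8 and 74.1 CPM in OE and 145 and 167 CPM in NC, a log2 fold change of -1.04 (SE 0.32). HADHA, the alpha subunit of the mitochondrial trifunctional protein, had 87.0 and 185 CPM in OE and 255 and 277 CPM in NC. CPT1B, the muscle form of the carnitine transferase, had 19.3 and 2.44 CPM in OE and 1.91 and 1.70 CPM in NC, with nearly all of the difference in OE replicate 1.

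By library, the median difference of the 10 genes from the NC mean was negative in both OE libraries, at -0.86 and -0.52. Beta-oxidation had -0.94 in the first OE library and 0.00 in the second, acetyl-CoA and NADPH supply -0.46 and 0.24, and SREBP control -0.09 and 0.15. The remaining enzymes of synthesis, elongation and desaturation had -0.82 and -0.12, other synthetases and carriers -0.66 and -0.04, glycerolipid synthesis -0.39 and -0.14, and regulators of the carboxylase 0.49 and -0.30. All genes kept had 0.02 and 0.00. The differences between the lists were not tested.

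**Figure D4:**
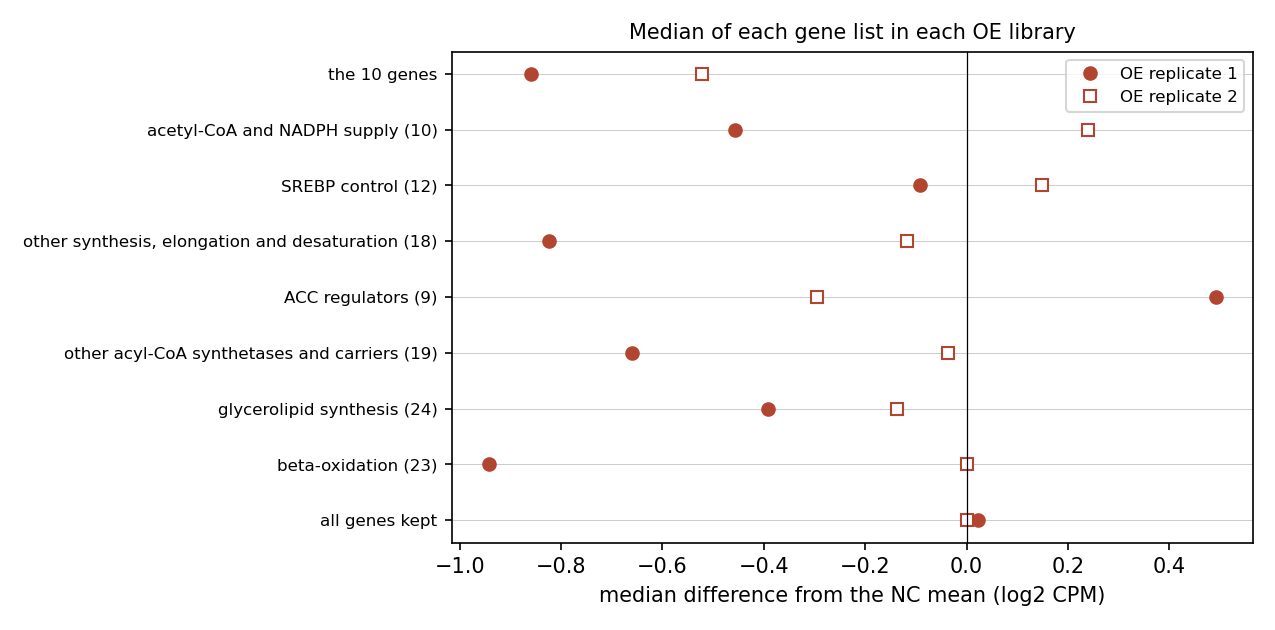
Median difference from the NC mean in log2 CPM of the 10 genes, of 7 neighbouring gene lists (measured members in parentheses) and of all genes kept, with filled circles for OE replicate 1 and open squares for OE replicate 2. The 10 genes are at -0.86 and -0.52, while beta-oxidation is at -0.94 and 0.00.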

How the data were processed

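The authors deposited an estimated count for every Ensembl gene of each library, per the file headers. From 13.8% to 14.7% of a library's values held a fraction, so they were handled like RSEM's output and rounded for count tests. The submitters' processing notes list the build hg18 and the tools fastp, Bowtie2, HISAT2, StringTie and RSEM. Versions, settings, annotation and strand were not given in the sources used here. No transcript lengths were used, so a planned ordering of levels per coding length was not made.

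R 4.3.3, edgeR 4.0.16, limma 3.58.1 and DESeq2 1.42.0 were used. filterByExpr (minimum count 10, total 15, proportion 0.7) kept 12560 of 20323 genes. The test was edgeR's quasi-likelihood test of OE over NC after TMM scaling (factors 1.36 and 0.907 for OE, 0.889 and 0.912 for NC), with no covariate, and an adjusted p (Benjamini-Hochberg, all genes) under 0.05 was called. A standard error is the log2 fold change divided by the root of F. Log2 CPM used a prior count of 2. A count of 3, the limit that 0 allows, was 0.286 and 0.136 CPM in OE and 0.154 and 0.176 CPM in NC. Intervals cover counting error only. The steps were tested on simulated data, where 29.6% of genes with a log2 change of 2 were called and 96% of those with 4. Among unchanged genes 0.0572% were called. The simulation used a common dispersion and no shift by level, and smaller changes like those of the 10 genes were not simulated.

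The genes and the lists around them were chosen with earlier results of these data known. Every gene of the set was named, and of each list up to 3 genes with the smallest unadjusted p; not every gene so named is reported here. The chi-square between replicates, divided by its degrees of freedom, was 345 for OE and 13.4 for NC, so no library was a repeat. Alternatives were DESeq2, RLE, library totals, quantile normalization, quality weights, other filters, summed gene models, a replicate block and leaving out each library. Shares after quantile normalization, the summed level with library totals and the neighbouring genes under both were added after seeing the data.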

Additional observations from a re-analysis of the deposited data

How the results depend on the processing

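The number of lower genes among the 10 stayed at 9 with DESeq2, RLE scaling, quality weights, no filter, a filter of 50 counts in 2 libraries, summed gene models and the replicate block, was 7 with quantile normalization and 6 with library totals, and ranged from 9 to 10 when each library was left out. The share of all genes that lay lower was 42.4% without OE replicate 1, 45.5% without OE replicate 2, 24.8% without NC replicate 1 and 26% without NC replicate 2, against 20.4% with all libraries, so the count is read against a larger share there. Their median log2 fold change moved to -0.37 with library totals and to -0.36 with quantile normalization, and ranged from -0.90 (without OE replicate 2) to -0.52 (without OE replicate 1) when each library was left out. The gap in ACSL1's share of ACSL footprints, the lower OE library minus the higher NC library, was 2.38 percentage points on the deposited counts and -0.545 with quantile normalization, and the sum of the 10 in OE replicate 1 was 84.4% of the NC mean with library totals and 56.0% with TMM. The log2 fold change of ACSL1 reversed to -0.026 with quantile normalization, and ranged from -0.306 (without OE replicate 2) to 0.522 (without OE replicate 1). The number of genes past the threshold, 0 in the reported fit, was 25 with DESeq2 (11 higher, 14 lower), 24 with the replicate block (13 higher, 11 lower) and from 7 to 7969 on leaving out each library, the lone library being assumed to vary like the other group. Replicate numbers were not shown to pair the libraries, as the difference of replicate 1 minus 2 in OE had a correlation of -0.0974 with that in NC across genes. The replicate block gave a median of -0.67 for the 10 genes and called none of them (adjusted p = 1 for each of the 10). Medians of some lists around the pathway reversed in sign. Acetyl-CoA and NADPH supply had 0.20 with library totals, 0.061 with quantile normalization and -0.498 to 0.242 on leaving out each library. Glycerolipid synthesis had 0.15 with library totals. The median of all genes was then 0.40, against 0.09 under TMM, so both lists lay below all genes under either scaling. Regulators of acetyl-CoA carboxylase had -0.074 with quantile normalization and -0.298 to 0.451 on leaving out each library. SREBP control had -0.134 to 0.15 on leaving out each library. Beta-oxidation had -0.985 to 0.00 there, which reached 0 but showed no positive value. The cause of these moves was not tested. The lowest count among the 10 genes was 96.69, for FADS2 in OE replicate 1, so counting error is widest there.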
